A study of Mus musculus with 12 samples.

Results

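The 38 genes described here serve DNA replication and mitosis, and were read as gene symbols in a table of raw RNA sequencing counts from mouse embryos. All 38 members were among the 24421 symbols of the table, and all 38 were among the 14810 genes that passed a filter on low counts. They form an S phase set of 20 genes, from Mcm2 to E2f1, and a mitotic set of 18 genes, from Ccna2 to Ttk. The 12 libraries come from C57Bl/6 embryos in 4 groups of 3. These are embryos whose alteration of Eftud2, a gene of the spliceosome, is labelled cell-specific and placed in the neural crest, either heterozygous (Eftud2+/-, the control) or homozygous (Eftud2-/-, the mutant), each collected on embryonic day 9.0 (E9.0) or 9.5 (E9.5). The controls thus carry 1 altered allele and no group is wild type. The labels used here name no Cre driver and do not give the number of embryos per library. They also give the source material in 3 ways, as neural crest cells, as cranial nerve ganglia and as heads kept for RNA extraction. Nothing states that the 3 libraries of a group came from separate embryos or litters, so p-values measure the spread between these libraries, which may in part be technical. In bulk RNA, fewer cells of a cycling type and less RNA per cell cannot be told apart.

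As background, a cell copies its DNA once per cycle. In G1, Cdc6 and Cdt1 load the Mcm2 to Mcm7 helicase ring onto origins, and at the start of S phase cyclin E with its kinase, Cdc45 and the GINS complex turn that ring into a moving helicase. E2f1 is a transcription factor that switches on many of these genes. Later, cyclins A and B with Cdk1 drive entry into mitosis, where Aurora and Polo kinases, the checkpoint proteins Bub1, Bub1b and Ttk, and kinesin motors attach and separate the chromosomes. In embryonic heads at these stages most neuroepithelial and mesenchymal cells are dividing, while neurons leave the cycle. Cdkn1a, a target of p53, encodes an inhibitor of the kinases of both phases, and the DREAM complex represses many of these genes through promoter letters called CHR.

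Promoter sequences are shown because they are a property that differed between the sets. Many of these genes are known for their control by E2f1 or through the CHR, as given above. The split is therefore a description and no test of the sets. RefSeq windows of 300 bases, from 250 before to 50 after a gene's start (build GRCm38.p6), were at hand for 31 of the 38 members. Mcm4, Gins1, Gins2, Ccne2, Ccna2, Aurkb and Kif20a had none. The starts are those of RefSeq, and other annotations can place them elsewhere. In GENCODE M21 the windows of E2f1, Cdc6 and Mcm7 lay wholly inside the gene. Letters found or missing in their windows may thus not be those of the promoter. Each window was searched on both strands for 3 spellings of an E2F site (TTTCCCGC, TTTGGCGC and TTTGGCGG), for the CHR (TTTGAA) and for the CCAAT box (CCAAT). No matches of different motifs overlapped in the members' windows. E2F letters stood in 7 of 16 S phase genes (Mcm3, Mcm5, Mcm6, Mcm7, Cdc6, Cdt1 and Pola1) and in 0 of 15 mitotic genes, against 2.39% of all 27025 genes with a window. In the 150 bases nearest the start the share of S phase genes was 18.8%, or 3 of 16, against 1.3% of all genes. The CHR showed the opposite split, with 11 of 15 mitotic genes and 2 of 16 S phase genes (Mcm2 and Cdc45), against 20.2% of all genes. Mitotic genes without it were Ccnb1, Bub1, Birc5 and Cenpe. A CCAAT box was in 14 of 15 mitotic and 11 of 16 S phase genes, against 41.1% of all genes, and all 11 mitotic CHR windows also held one. Windows with both CHR and CCAAT belonged to 7.97% of all genes. A match is a description of letters and not a binding site. The 250 bases before the start are printed for 5 members, 5′ to 3′ on the gene's own strand, with matches on either strand in capitals. Mcm5 (chr8:75109259-75109508, plus strand) and Mcm6 (chr1:128359706-128359955, minus strand) stand for the helicase genes with E2F letters. Cdk1 (chr10:69352913-69353162, minus strand) and Cdc20 (chr4:118437344-118437593, minus strand) stand for the mitotic genes with the CHR, and Rrm1 (chr7:102441445-102441694, plus strand) is the member that rose most with stage.
Mcm5: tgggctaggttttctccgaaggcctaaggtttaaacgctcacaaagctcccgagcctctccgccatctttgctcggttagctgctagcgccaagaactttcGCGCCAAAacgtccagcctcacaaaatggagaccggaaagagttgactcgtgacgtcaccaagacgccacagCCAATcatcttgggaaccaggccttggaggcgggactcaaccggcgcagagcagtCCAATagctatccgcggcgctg
Mcm6: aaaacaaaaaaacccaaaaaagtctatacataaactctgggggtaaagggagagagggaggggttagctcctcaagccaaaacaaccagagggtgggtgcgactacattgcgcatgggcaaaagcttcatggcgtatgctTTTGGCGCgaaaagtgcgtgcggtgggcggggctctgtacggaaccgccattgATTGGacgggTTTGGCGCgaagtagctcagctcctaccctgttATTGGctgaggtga
Rrm1: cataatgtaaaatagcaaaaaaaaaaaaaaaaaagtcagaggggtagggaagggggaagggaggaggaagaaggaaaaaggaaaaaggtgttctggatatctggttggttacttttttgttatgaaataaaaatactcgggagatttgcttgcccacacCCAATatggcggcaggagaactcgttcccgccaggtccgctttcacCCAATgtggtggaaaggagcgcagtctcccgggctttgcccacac
Cdk1: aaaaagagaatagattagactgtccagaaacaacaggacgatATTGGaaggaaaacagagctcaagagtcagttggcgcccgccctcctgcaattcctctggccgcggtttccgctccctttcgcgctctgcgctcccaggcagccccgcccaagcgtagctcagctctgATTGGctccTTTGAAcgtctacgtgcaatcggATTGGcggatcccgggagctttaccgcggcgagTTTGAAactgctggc
Cdc20: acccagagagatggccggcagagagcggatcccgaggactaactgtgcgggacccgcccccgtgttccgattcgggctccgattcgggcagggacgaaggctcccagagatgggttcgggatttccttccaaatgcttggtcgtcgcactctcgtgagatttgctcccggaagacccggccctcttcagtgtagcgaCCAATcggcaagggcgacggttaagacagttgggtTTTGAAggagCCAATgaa
In Mcm6 the E2F letters begin 110 and 47 bases before the start, and in Mcm5 149 bases before it. The CHR begins 71 and 15 bases before the start of Cdk1, whose CCAAT boxes begin 208, 80 and 48 bases before it, and 18 bases before that of Cdc20. Rrm1 has neither motif in this window and holds 2 CCAAT boxes, 91 and 45 bases before its start.

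Levels are CPM, counts relative to the library size as scaled by the TMM method, and differences are log2 fold changes from edgeR's quasi-likelihood test with p-values adjusted by Benjamini-Hochberg over the 14810 genes. A gene is said to rise or fall where that adjusted p is under 0.05. Library totals ran from 13914543 to 31172708 counts, with 13914543 to 24302660 at E9.0 and 24165537 to 31172708 at E9.5. The 45S ribosomal RNA row took 6.05% to 37.4% of counts at E9.0 and 4.40% to 5.90% at E9.5. Its largest share was in heterozygous E9.0 replicate 1, whose TMM factor of 0.664 stood apart from the range of 0.924 to 1.11 in the others. Eftud2, the targeted gene, ran from 275 to 302 CPM in heterozygous and from 232 to 236 CPM in homozygous E9.0 libraries, and from 248 to 264 and from 221 to 226 CPM at E9.5. No marker of migrating neural crest (5 genes) or of cranial ganglia (4 genes) was at 0 in any library, with sums of 132 to 259 CPM and of 60.6 to 83.9 CPM. Markers of primitive erythroid cells (6 genes, 535 to 5189 CPM) and heart muscle (4 genes, 42.4 to 1983 CPM) were also present.

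The members were abundant and steady genes. Per kilobase of the longest annotated transcript, the lowest of them exceeded 62.5% of all tested genes and the median member exceeded 92.7%. Together they made up 8138 to 9059 CPM per library. The highest levels per kilobase belonged to Pcna, the sliding clamp of the replication fork, at 210.1 ± 2.09 CPM per kb in heterozygous E9.0 libraries (SD, n = 3). Top2a, the topoisomerase that untangles chromosomes, followed at 189 ± 12.5, then Rrm2, the regulated subunit of ribonucleotide reductase, at 177 ± 6.51 and the helicase gene Mcm7 at 169 ± 7.78 (SD, n = 3 each). In that order the means of Top2a and Rrm2, and of Rrm2 and Mcm7, differed by less than the sum of their SDs. At the other end stood E2f1 at 10.8 ± 0.994 and Gins2, a subunit of the GINS complex, at 11.9 ± 0.643 CPM per kb, which also lay within their spread. The lowest count of any member in any library was 359, in E2f1. The biological coefficient of variation between replicates had a median of 6.33% in the S phase set and 6.31% in the mitotic set, against 8.27% for all genes, and ran from 4.82% in Birc5 to 9.96% in Mki67.

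**Figure D1:**
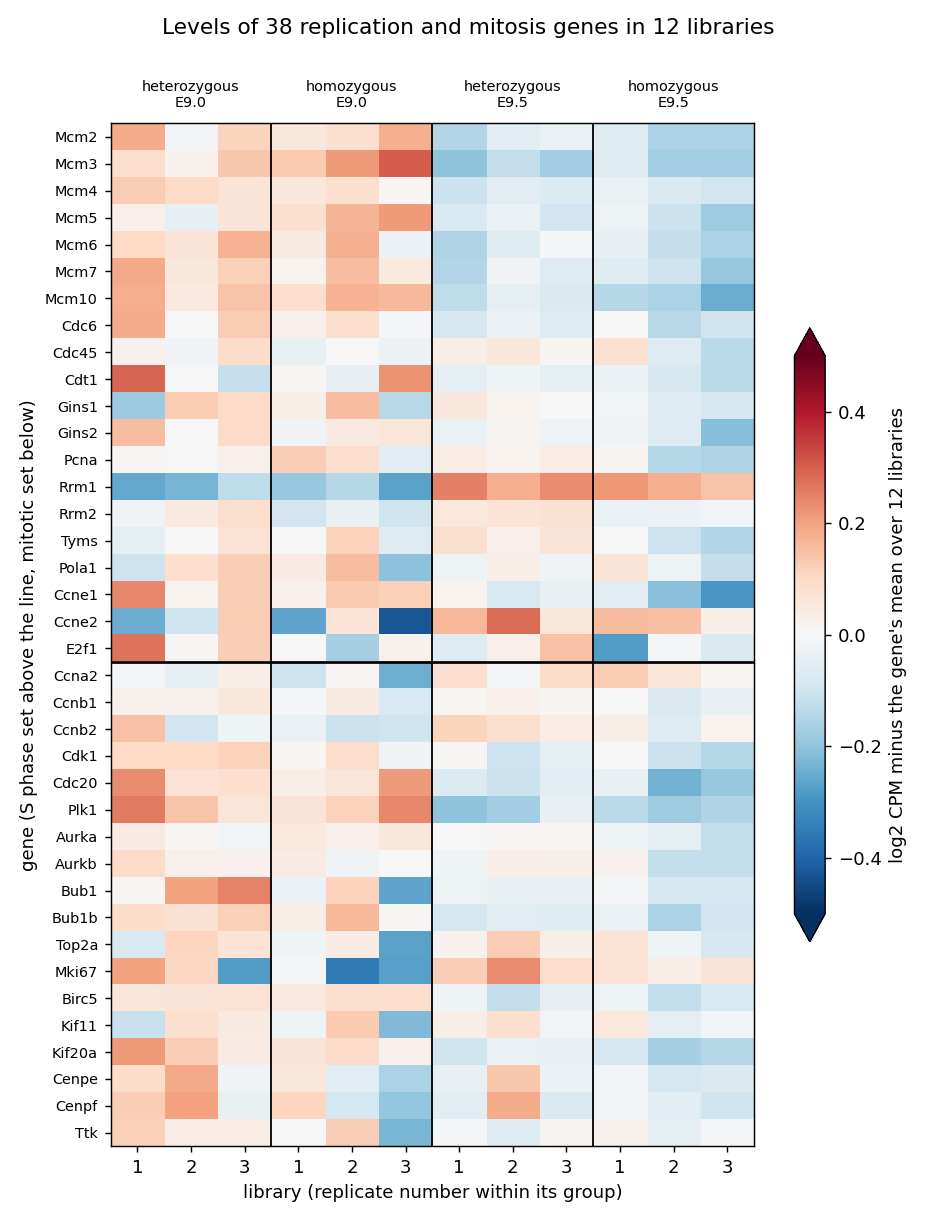
Each row is a gene and each column a library, and colour gives the log2 CPM minus the gene's mean over the 12 libraries. The line separates the 20 S phase genes from the 18 mitotic genes. Rrm1 is low in the E9.0 and high in the E9.5 columns, most Mcm rows and Plk1 and Cdc20 show the reverse, and no row separates the genotypes in the same way at both stages except Rrm2.

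Whether the mutation alters the cycling machinery was asked first, by comparing homozygous with heterozygous libraries at each stage. Of the 38 members, 0 rose or fell at E9.0 and 0 at E9.5, where 0.587% and 1.89% of all genes were called. With DESeq2 and with limma-voom the counts were also 0 at both stages. Unadjusted p-values under 0.05 were held by 4 members at E9.0 and 2 at E9.5, against 13.3% and 13.4% of all genes. With TMM scaling, the 95% intervals bound what could have been missed in the RNA of a whole library. At E9.0 those of 33 of 38 members, and at E9.5 those of 36 of 38, lay wholly within a 1.25-fold change either way. All 38 lay within 1.5-fold at both stages. A change confined to the altered cells was not measured apart from the other cells, and could be larger than these bounds. These bounds depend on the scaling, since among the alternatives the E9.0 differences themselves reached 0.33 in Mcm5 and 0.33 in Mcm3, beyond 1.25-fold. With TMM, the widest reach downward was that of Mki67 at E9.0, to −0.46, and upward that of Mcm3 at E9.0, to 0.26. Small differences leaned downward. At E9.0, 12 of 20 S phase genes and 16 of 18 mitotic genes were lower in homozygous libraries, with median differences of −0.035 and −0.071, against 51.0% of all genes and a median of −0.0043. At E9.5 the lower genes numbered 18 of 20 and 16 of 18, with medians of −0.050 and −0.060, against 50.8% of all genes and a median of −0.0026. In all, 25 of 38 members were lower at both stages, 11 in the S phase and 14 in the mitotic set, against 29.6% of all genes. These genes may vary together between libraries, which was not measured, so their number is not taken as a number of independent observations. When libraries were scaled by total counts only, the median of all genes moved to 0.190 at E9.0, and 0 S phase and 2 mitotic genes were below 0 but 12 and 16 lay below that median.

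**Figure D2:**
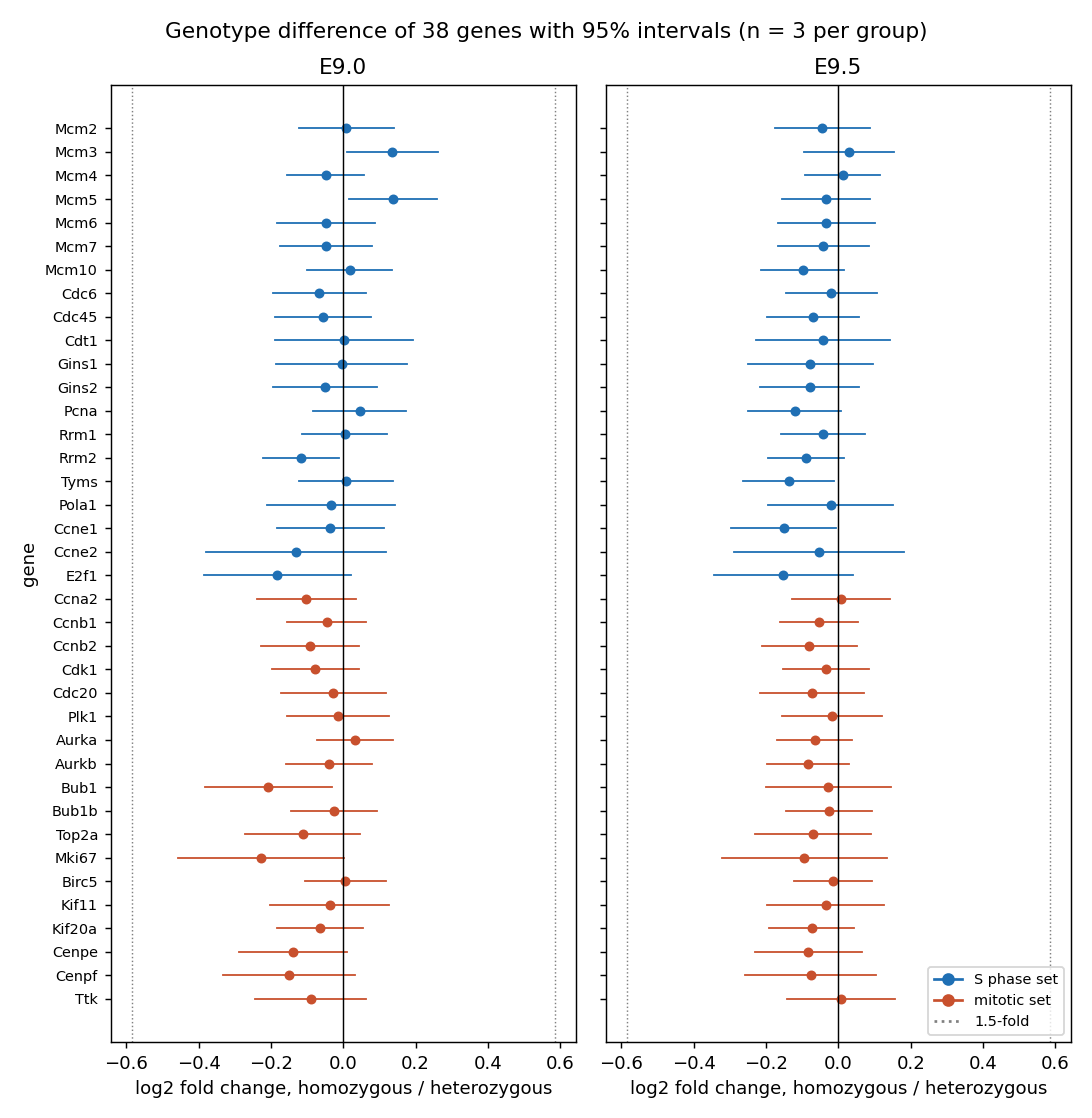
Points are log2 fold changes of homozygous over heterozygous libraries (n = 3 per group) and lines their 95% intervals, at E9.0 and at E9.5. All 38 intervals lie between the dotted lines at 1.5-fold at both stages, and 28 points at E9.0 and 34 at E9.5 lie below 0 with TMM scaling (2 and 35 with total counts only).

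Among the helicase genes the E9.0 values went both ways. Mcm5 was at 448, 428 and 460.4 CPM in heterozygous and 465, 495 and 510.5 CPM in homozygous E9.0 libraries, and at 418, 430.0 and 411 and 432, 408 and 389 CPM at E9.5. The E9.0 groups did not overlap, and Mcm5 was the 1 member higher in every homozygous library there, where 9.07% of all genes were. Its difference of 0.14 ± 0.057 (SE, n = 3 each) did not pass the test (edgeR adjusted p 0.313), and at E9.5 the value was −0.035. Mcm3 had 396, 379 and 409 CPM in heterozygous and 408, 433 and 460.3 CPM in homozygous E9.0 libraries, with groups that overlapped and a difference of 0.14 ± 0.059 (edgeR adjusted p 0.338). The other 4 ring subunits lay between −0.049 and 0.0091 at E9.0, and all 6 between −0.045 and 0.029 at E9.5. Mcm10, a factor that helps activate the ring, differed by 0.017 and −0.099, and the origin loaders Cdc6 and Cdt1 lay no further from 0 than −0.066.

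Among the enzymes that make deoxynucleotides, Rrm2 had the smallest p-value of all members in the average over stages and Tyms at E9.5, though neither passed. Rrm2 was at 372, 389.9 and 400.3 CPM in heterozygous and 352, 368 and 352 CPM in homozygous E9.0 libraries. Its E9.5 levels were 390.4, 395 and 397 CPM and 368, 369 and 373 CPM. The homozygous libraries were lower without overlap at both stages. The differences of −0.12 ± 0.050 and −0.091 ± 0.050 (SE, n = 3 each) did not pass (edgeR adjusted p 0.329 and 0.468). Averaged over both stages the value was −0.10 ± 0.035, a change of −6.94% that did not pass either (edgeR adjusted p 0.137), although DESeq2 gave −0.10 with adjusted p 0.0169 and a correction for GC content and transcript length gave −0.12 with adjusted p 0.0431. With total counts only it was −0.013, without passing. Over 12 fits that each left out 1 library the TMM-scaled average ranged from −0.12 to −0.093. Tyms, which makes thymidylate, was at 101, 97.5 and 100.3 CPM in heterozygous and 96.1, 89.2 and 86.7 CPM in homozygous E9.5 libraries. Those groups did not overlap either, with a difference of −0.14 ± 0.060 (edgeR adjusted p 0.324), while at E9.0 the value was 0.0085. Rrm1, the large subunit of the same reductase as Rrm2, differed by 0.0036 at E9.0 and −0.043 at E9.5.

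E2f1, the transcription factor of S phase entry, stood at 32.6, 27.1 and 29.4 CPM in heterozygous and 27.0, 24.0 and 27.4 CPM in homozygous E9.0 libraries, and 25.8, 27.5 and 29.9 CPM and 22.3, 26.9 and 25.7 CPM in those of E9.5. Its groups overlapped at each stage, and the differences were −0.18 ± 0.096 and −0.15 ± 0.091 (SE, n = 3 each). The average of −0.17 ± 0.066 had an edgeR adjusted p of 0.202, and passed only with the GC and length correction among the alternatives run (−0.22, adjusted p 0.0299, and 0.0401 with a replicate block). Ccne1, a cyclin E, was at 86.7, 81.3 and 83.5 CPM in heterozygous and 82.3, 74.1 and 70.1 CPM in homozygous E9.5 libraries, a difference of −0.15 ± 0.068 (edgeR adjusted p 0.348). The second cyclin E gene, Ccne2, differed by −0.13 at E9.0 and −0.055 at E9.5. Pcna had 326, 321 and 325 CPM in heterozygous and 320.3, 287 and 286 CPM in homozygous E9.5 libraries, without overlap and with a difference of −0.12 ± 0.060 (edgeR adjusted p 0.407), while at E9.0 the value was 0.046.

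In the mitotic set the largest differences at E9.0 were those of Mki67 and Bub1. Mki67, a coat protein of mitotic chromosomes used as a marker of cycling cells, was at 637, 595 and 457 CPM in heterozygous and 550.5, 434 and 459 CPM in homozygous E9.0 libraries. Heterozygous replicate 3 lay among the homozygous libraries, and the difference was −0.23 ± 0.11 (edgeR adjusted p 0.378). It ranged from −0.36 to −0.13 over fits that each left out a library. At E9.5 the groups were at 604, 653 and 590.0 and 583, 568 and 579 CPM, without overlap but only −0.094 apart. Bub1, a kinase of the spindle checkpoint, had 178, 203 and 210.0 CPM in heterozygous and 173, 192 and 147 CPM in homozygous E9.0 libraries. The homozygous replicate 3 was the lowest and replicate 2 lay among the heterozygous ones, for a difference of −0.21 ± 0.082 (edgeR adjusted p 0.294). Fits without a library gave −0.30 to −0.11. The large kinetochore genes Cenpe and Cenpf had averages over both stages of −0.11 ± 0.050 and −0.11 ± 0.061 (edgeR adjusted p 0.265 and 0.364). Cenpe, a kinesin of the kinetochore, was at 216, 231 and 199.7 CPM in heterozygous and 210.4, 195 and 181 CPM in homozygous E9.0 libraries. Cenpf was at 423, 446 and 378 and 419, 365 and 339 CPM there, and in both genes the groups overlapped. Cdk1, the kinase of mitotic entry, was lower in every homozygous E9.0 library, at 162, 171 and 159 against 172, 172 and 174 CPM, but by only −0.077 ± 0.057 (edgeR adjusted p 0.581). Its cyclins Ccna2, Ccnb1 and Ccnb2 were −0.10, −0.046 and −0.092 at E9.0 and 0.0081, −0.053 and −0.080 at E9.5. The mitotic kinases Aurka, Aurkb and Plk1 lay at 0.033, −0.039 and −0.014 at E9.0, and at −0.066, −0.084 and −0.018 at E9.5.

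Complete separation of the genotypes was counted over all members. At E9.0, Rrm2 and Cdk1 were lower in every homozygous library, 2 of 38 members against 8.2% of all genes. At E9.5 it was 9 of 38 members, namely Mcm10, Gins1, Pcna, Rrm2, Tyms, Ccnb1, Ccnb2, Aurka and Mki67, against 9.47% of all genes, and 0 of 38 were higher in every homozygous library, against 11.4%. Each of these separations has an exact permutation p of 0.1, the smallest that 3 against 3 allows. All 9 differences lay between −0.053 and −0.14, the latter a change of −9.09%. When both stages were averaged, 0 members passed, against 2.96% of all genes. By unadjusted p, 3 members were under 0.05 (Rrm2, E2f1 and Cenpe), against 16.9% of all genes. DESeq2 called 1 member (Rrm2) and limma-voom 0. Calls over all genes in the average are not given for these methods, so their counts are not read as a result about the members. All 18 mitotic genes and 18 of 20 S phase genes had an average below 0, with medians of −0.053 and −0.041, and the exceptions were Mcm3 (0.083) and Mcm5 (0.052). With total counts only, 5 and 3 were below 0, and 18 and 18 below the median of all genes. With TMM every average interval lay within 1.25-fold.

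The genotype effect was then compared between stages. Of 38 members 0 passed the test of this interaction (edgeR), against 0.0675% of all genes, and DESeq2 and limma-voom called 0. By unadjusted p, 1 member was under 0.05, against 8.6% of all genes. That member was Mcm5, whose genotype difference changed by −0.17 ± 0.081 from E9.0 to E9.5 (SE; edgeR adjusted p 0.576). Pcna and Tyms followed in the S phase set at −0.17 and −0.15, and Bub1 was the largest of the mitotic set at 0.18 (edgeR adjusted p 0.702). The Bub1 value ranged from 0.083 to 0.28 over fits that each left out a library. Medians over the sets were −0.037 and 0.0066.

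The sets were next set against each other within each library, as the mean log2 CPM of a set's genes after centring each gene on its mean over the 12 libraries. The S phase set was at 0.061, 0.0083 and 0.083 in heterozygous and 0.0056, 0.076 and 0.0011 in homozygous E9.0 libraries. The mitotic set was at 0.089, 0.079 and 0.034 and at 0.015, 0.027 and −0.079 in the same libraries. The mitotic means of the 2 genotypes did not overlap at E9.0, while those of the S phase set did. At E9.5 the S phase set had −0.026, 0.010 and −0.0043 in heterozygous and −0.016, −0.074 and −0.12 in homozygous libraries, and the mitotic set −0.014, 0.012 and −0.0066 against 0.0013, −0.084 and −0.075. There, homozygous replicate 1 lay within the heterozygous range in both sets. By group the S phase minus mitotic difference was −0.017 ± 0.060 in heterozygous and 0.040 ± 0.046 in homozygous E9.0 libraries, and −0.0040 ± 0.0076 and −0.019 ± 0.029 at E9.5 (SD, n = 3 each). Each of these group means lay within 1 SD of 0, but centring fixes their mean over the groups at 0, so this says nothing on the balance of the sets. The median genotype differences of the 2 sets lay 0.036 apart at E9.0 and only 0.0096 apart at E9.5.

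**Figure D3:**
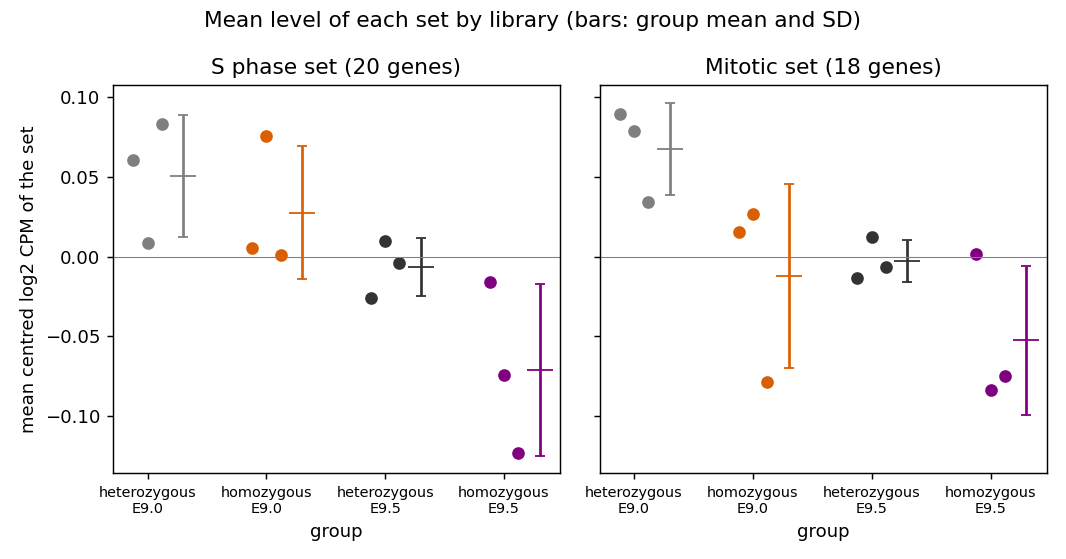
Points give, for each library, the mean over a set's genes of log2 CPM centred on the gene's mean over 12 libraries, and bars give the group mean and SD (n = 3). The S phase set spans −0.12 to 0.083 and the mitotic set −0.084 to 0.089, with the highest values in E9.0 libraries and the lowest in homozygous libraries (E9.5 replicate 3 in the S phase set, E9.5 replicate 2 in the mitotic set).

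Between E9.0 and E9.5, 13 of 38 members passed the test in heterozygous and 15 of 38 in homozygous embryos, against 35.2% and 35.4% of all genes, so the members were called about as often as genes at large. In heterozygous embryos 1 member rose and 12 fell, and in homozygous embryos 3 rose and 12 fell. Among all genes 19.2% rose and 16% fell in heterozygous embryos, and 19.6% and 15.8% in homozygous ones. The number called moved with the processing, and so did that over all genes, 5216 in heterozygous and 5238 in homozygous embryos with the main test. In heterozygous embryos 17 S phase and 11 mitotic genes passed once GC content and transcript length were corrected for, where 6938 of all genes did and 63.3% of all genes were lower at E9.5. With the replicate number as a block 5 and 3 passed (5019 of all genes), without a low-count filter 3 and 2 (4775), and with total counts without the ribosomal row 2 and 2 (5317). In homozygous embryos 16 and 10 passed with the GC and length correction (6775 of all genes), 6 and 3 without a low-count filter (5052), and 1 and 1 with total counts only (3325). The S phase set had 1 rise and 7 falls in heterozygous and 2 rises and 7 falls in homozygous embryos, and the mitotic set 0 and 5, and 1 and 5. Of the 18 members called in either genotype, 10 were called in both and in the same direction, which is 76.9% of the heterozygous and 66.7% of the homozygous calls. Among all genes these shares were 69.1% and 68.8%. Median changes were −0.097 and −0.12 in the S phase set and −0.070 and −0.017 in the mitotic set, against 0.0082 and 0.015 over all genes. With TMM scaling the 95% intervals of all 38 members lay within 1.5-fold in both genotypes. Among the alternatives the heterozygous values themselves reached 0.79 in Rrm1 and 0.59 in Ccne2, beyond 1.5-fold. Depth and the share of ribosomal RNA differed between the stages as given above, and their part in these changes was not tested. With TMM, RLE and upper-quartile factors and with total counts, 15 S phase and 13 mitotic genes lay below the median of all genes in heterozygous embryos. The sign against 0 was less stable: total counts only moved the median of all genes to 0.377, and then 0 of 38 heterozygous changes were below 0.

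**Figure D4:**
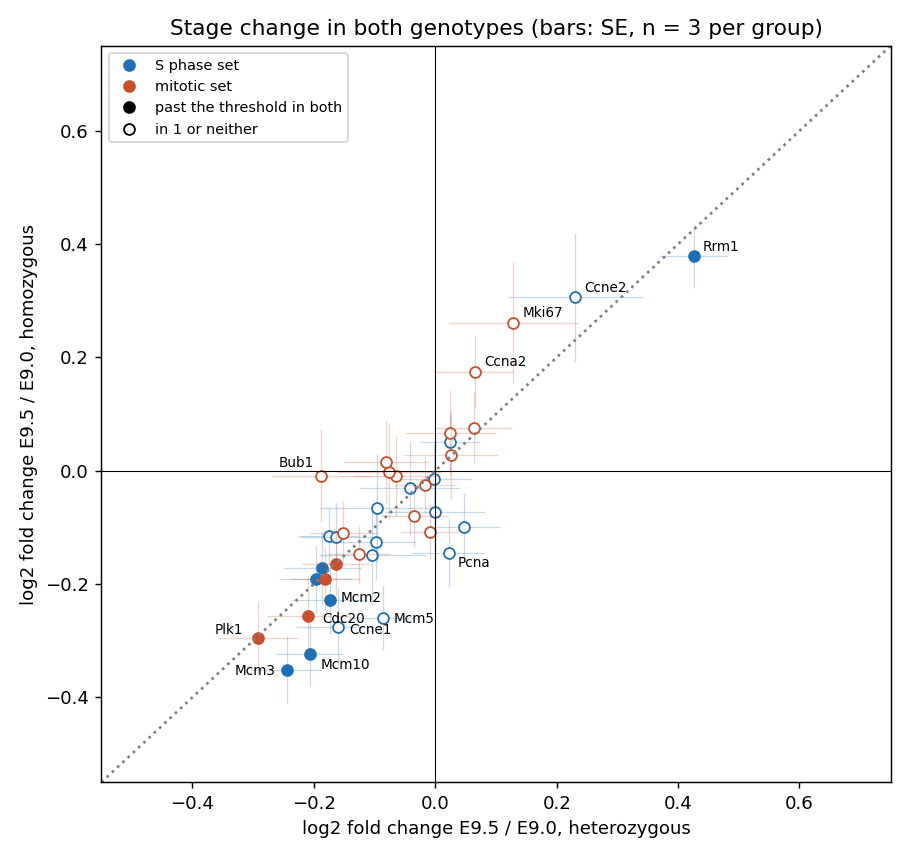
Each point is a gene, with its log2 fold change from E9.0 to E9.5 in heterozygous (horizontal) and homozygous (vertical) embryos and bars of 1 SE (n = 3 per group). Filled points passed the test in both genotypes. With TMM scaling Rrm1 is the furthest point at the upper right, followed by Ccne2 and Mki67, and the Mcm genes, Plk1 and Cdc20 at the lower left, where total counts only turn the heterozygous sign of all falls but leave them below the median of all genes.

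Of the 6 genes of the Mcm2 to Mcm7 ring, 5 fell in each genotype (all but Mcm5 in heterozygous and all but Mcm4 in homozygous embryos), with values for all 6 from −0.24 to −0.087 in heterozygous and from −0.35 to −0.12 in homozygous embryos. With total counts only the heterozygous values turned positive, from 0.13 in Mcm3 upward, below the 0.377 of the median gene. Mcm3 had 396, 379 and 409 CPM in heterozygous and 408, 433 and 460.3 CPM in homozygous E9.0 libraries, and 325, 344 and 331 CPM and 357, 331 and 331 CPM in those of E9.5. Every E9.5 library was below every E9.0 library, with falls of −0.24 ± 0.059 in heterozygous and −0.35 ± 0.059 in homozygous embryos (SE; edgeR adjusted p 0.00425 and 2.47e-04). Mcm2 was at 395, 344 and 376 CPM in heterozygous and 361, 367 and 393 CPM in homozygous E9.0 libraries, and 313, 335 and 339.6 CPM and 333, 312 and 312 CPM in those of E9.5. Its falls were −0.17 ± 0.062 and −0.23 ± 0.062 (edgeR adjusted p 0.0386 and 0.00912). Mcm4 was at 324, 318 and 311 CPM in heterozygous and 309, 313 and 299 CPM in homozygous E9.0 libraries, and 275, 285 and 283 CPM and 289.6, 282 and 278 CPM in those of E9.5. It fell in heterozygous embryos (−0.18 ± 0.050, edgeR adjusted p 0.0115), while the homozygous value of −0.12 did not pass. Mcm5, with the levels given above, showed the reverse, with a fall of −0.26 ± 0.057 in homozygous embryos (edgeR adjusted p 0.00221) and −0.087 in heterozygous ones. The difference between these 2 values is the interaction, which did not pass. Mcm6 was at 437, 426 and 459.9 CPM in heterozygous and 419.6, 461 and 399 CPM in homozygous E9.0 libraries, and 367, 391 and 405 CPM and 396, 375 and 365 CPM in those of E9.5. Its levels separated the stages without overlap in each genotype, with falls of −0.19 ± 0.064 and −0.17 ± 0.064. Mcm7 had 525, 479 and 500.2 CPM in heterozygous and 467, 513 and 476 CPM in homozygous E9.0 libraries, and 417, 456 and 440.2 CPM and 442, 429 and 405 CPM in those of E9.5. Those levels gave falls of −0.20 ± 0.060 and −0.19 ± 0.060.

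These calls were also checked in fits that left out 1 library at a time. Mcm3 kept its call in 6 of 6 such fits in both genotypes, and Mcm2 and Mcm5 in 6 of 6 in homozygous embryos. In heterozygous embryos Mcm2 kept it in 1, Mcm4 in 5, Mcm6 in 2 and Mcm7 in 4 of 6, with edgeR adjusted p up to 0.155, 0.0534, 0.144 and 0.0864. In homozygous embryos Mcm6 kept it in 2 and Mcm7 in 3 of 6, with edgeR adjusted p up to 0.222 and 0.0966. All these fits kept the downward sign. Heterozygous values ranged over −0.23 to −0.13 (Mcm2), −0.19 to −0.16 (Mcm4), −0.22 to −0.15 (Mcm6) and −0.23 to −0.16 (Mcm7). Homozygous values ranged over −0.22 to −0.11 (Mcm6) and −0.22 to −0.15 (Mcm7). Over the S phase set, 8 heterozygous calls became 4 without heterozygous E9.0 replicate 1, 3 without E9.5 replicate 1 and 5 without E9.5 replicate 2. Each such fit has 1 library fewer, and calls over all genes are not set beside these counts. They are therefore not read as a result about the set.

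The factors around the ring changed less uniformly. Mcm10 was at 121, 110.1 and 118 CPM in heterozygous and 113, 120.3 and 119 CPM in homozygous E9.0 libraries, and 97.6, 103 and 101 CPM and 96.5, 95.5 and 89.8 CPM in those of E9.5. All E9.5 libraries were below all E9.0 libraries, and the falls were −0.21 ± 0.055 and −0.32 ± 0.055 (SE; edgeR adjusted p 0.008 and 2.86e-04), kept in 6 of 6 fits that left out a library in each genotype. Cdc6 had 96.3, 84.4 and 92.3 CPM in heterozygous and 86.1, 90.0 and 84.3 CPM in homozygous E9.0 libraries, and 79.8, 82.9 and 80.8 CPM and 84.5, 76.8 and 78.9 CPM in those of E9.5. It fell in heterozygous embryos (−0.16 ± 0.060, edgeR adjusted p 0.0433), a call kept in 1 of 6 such fits (adjusted p up to 0.155), and its homozygous value was −0.12. Over those fits the heterozygous value ranged from −0.21 to −0.12. Cdt1, Cdc45, Gins1, Gins2 and Pola1, the last a subunit of the polymerase that starts each new strand, did not pass in either genotype, with no value below −0.15 or above 0. Pcna was 0.022 in heterozygous and −0.14 in homozygous embryos and passed in neither.

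Rrm1 rose, against the direction of the helicase genes. Its levels were 283, 287 and 309 CPM in heterozygous and 296, 306 and 281 CPM in homozygous E9.0 libraries, and 402, 383 and 397 CPM and 392, 383 and 372 CPM in those of E9.5. No E9.5 library overlapped any E9.0 library, and the rises were 0.43 ± 0.056 in heterozygous and 0.38 ± 0.056 in homozygous embryos (SE, n = 3 each; edgeR adjusted p 2.67e-05 and 7.43e-05), or 1.34-fold and 1.30-fold. The rise was called in all 15 alternatives in each genotype and in 6 of 6 fits that left out a library. Its size depended on the processing, from 0.34 to 0.79 in heterozygous and 0.24 to 0.55 in homozygous embryos over those alternatives. Rrm2, the partner subunit, changed by 0.024 and 0.050 and did not pass, and neither did Tyms (0.047 and −0.099). Of the 2 cyclin E genes, Ccne1 fell and Ccne2 rose in homozygous embryos, and neither passed in heterozygous ones. Ccne1 was at 101, 86.8 and 93.2 CPM in heterozygous and 87.2, 93.9 and 93.0 CPM in homozygous E9.0 libraries, above all E9.5 libraries of its genotype. Its fall of −0.28 ± 0.070 in homozygous embryos passed (edgeR adjusted p 0.00556, 6 of 6 fits), and −0.16 ± 0.069 in heterozygous ones did not (edgeR adjusted p 0.0825). Ccne2 had 50.8, 56.2 and 65.8 CPM in heterozygous and 50.2, 63.1 and 44.8 CPM in homozygous E9.0 libraries, and 67.5, 73.2 and 62.7 CPM and 67.3, 66.8 and 61.7 CPM in those of E9.5. The stages overlapped in each genotype, and the homozygous rise of 0.31 ± 0.11 passed narrowly (edgeR adjusted p 0.0495) and in 1 of 6 fits, with adjusted p up to 0.2. In those fits the rise ranged from 0.20 to 0.46. E2f1 was −0.097 and −0.066, neither of which passed.

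In the mitotic set the largest falls were those of Plk1 and Cdc20. Plk1, the Polo kinase, was at 157, 145 and 137 CPM in heterozygous and 137, 142 and 155 CPM in homozygous E9.0 libraries, and 114, 116 and 128 CPM and 119, 116 and 118 CPM in those of E9.5. The stages did not overlap, with falls of −0.29 ± 0.066 and −0.30 ± 0.066 (SE; edgeR adjusted p 0.00263 and 0.00241), kept in 6 of 6 fits that left out a library in each genotype. Cdc20, which activates the ubiquitin ligase that ends mitosis, had 241, 215 and 217 CPM in heterozygous and 209.9, 214 and 237 CPM in homozygous E9.0 libraries, and 195, 190.0 and 197 CPM and 199.9, 174 and 179.6 CPM in those of E9.5. Its falls were −0.21 ± 0.068 and −0.26 ± 0.068 (edgeR adjusted p 0.0244 and 0.00793), kept in 3 of 6 fits in heterozygous (adjusted p up to 0.105) and 6 of 6 in homozygous embryos. The heterozygous value ranged from −0.24 to −0.15 over those fits. Kif20a, a kinesin of cell division, was at 263, 248 and 234 CPM in heterozygous and 238, 243 and 232 CPM in homozygous E9.0 libraries, and 213, 223 and 222 CPM and 215, 203 and 206 CPM in those of E9.5. It fell by 0.18 and 0.19 (edgeR adjusted p 0.0193 and 0.0144), in 4 of 6 fits in each genotype with adjusted p up to 0.0846 and 0.065. Values over those fits ranged from −0.22 to −0.14 in heterozygous and from −0.21 to −0.17 in homozygous embryos. With total counts only, the heterozygous values of these 3 genes turned positive, at 0.091, 0.17 and 0.20, below the median gene.

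The other mitotic calls were each kept in at most 3 of 6 fits that left out a library. Bub1b, a checkpoint kinase relative, had 302, 299.7 and 308 CPM in heterozygous and 291, 319 and 285 CPM in homozygous E9.0 libraries, and 267, 273 and 272 CPM and 277, 255 and 266 CPM in those of E9.5. Its falls of −0.16 and −0.16 passed (edgeR adjusted p 0.0322 and 0.0312), but in 0 of 6 fits without a library in heterozygous and 3 of 6 in homozygous embryos. The values themselves ranged over −0.17 to −0.15 and −0.20 to −0.11 in those fits. Cdk1 was at 161, 149.7 and 155 CPM in heterozygous and 161, 149 and 146 CPM in homozygous E9.5 libraries, below its E9.0 levels given above in the heterozygous group. That fall of −0.15 ± 0.057 (edgeR adjusted p 0.046) was called in 0 of 6 fits, with edgeR adjusted p up to 0.147 and values from −0.18 to −0.13. Birc5, the survivin subunit of the Aurora B complex, had 80.9, 81.2 and 81.6 CPM in heterozygous and 80.3, 82.1 and 82.4 CPM in homozygous E9.0 libraries, and 76.5, 71.5 and 75.5 CPM and 76.2, 71.2 and 73.6 CPM in those of E9.5. It fell in homozygous embryos (−0.15 ± 0.052, edgeR adjusted p 0.036; 1 of 6 fits, adjusted p up to 0.15), and the heterozygous value of −0.13 did not pass. Ccna2, cyclin A, was the mitotic gene that rose. It was at 266, 258 and 273 CPM in heterozygous and 249, 269 and 226 CPM in homozygous E9.0 libraries, and 283, 266 and 285 CPM and 291, 279 and 269 CPM in those of E9.5. The homozygous rise of 0.18 ± 0.064 passed (edgeR adjusted p 0.0446; 2 of 6 fits, adjusted p up to 0.184), and the heterozygous value was 0.065. The remaining 11 mitotic genes did not pass in either genotype, among them Top2a (0.025 and 0.067), Kif11 (0.026 and 0.028) and Mki67 (0.13 and 0.26). Over the mitotic set, 5 heterozygous calls became 1 without heterozygous E9.5 replicate 1, 2 without E9.0 replicate 1 or E9.5 replicate 2, and 3 without each other heterozygous library. Its 6 homozygous calls became 2 without E9.5 replicate 2 and 3 without E9.5 replicate 3. As for the S phase set, calls over all genes in these smaller fits are not given. The counts are therefore not read as a result about the set.

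**Figure D5:**
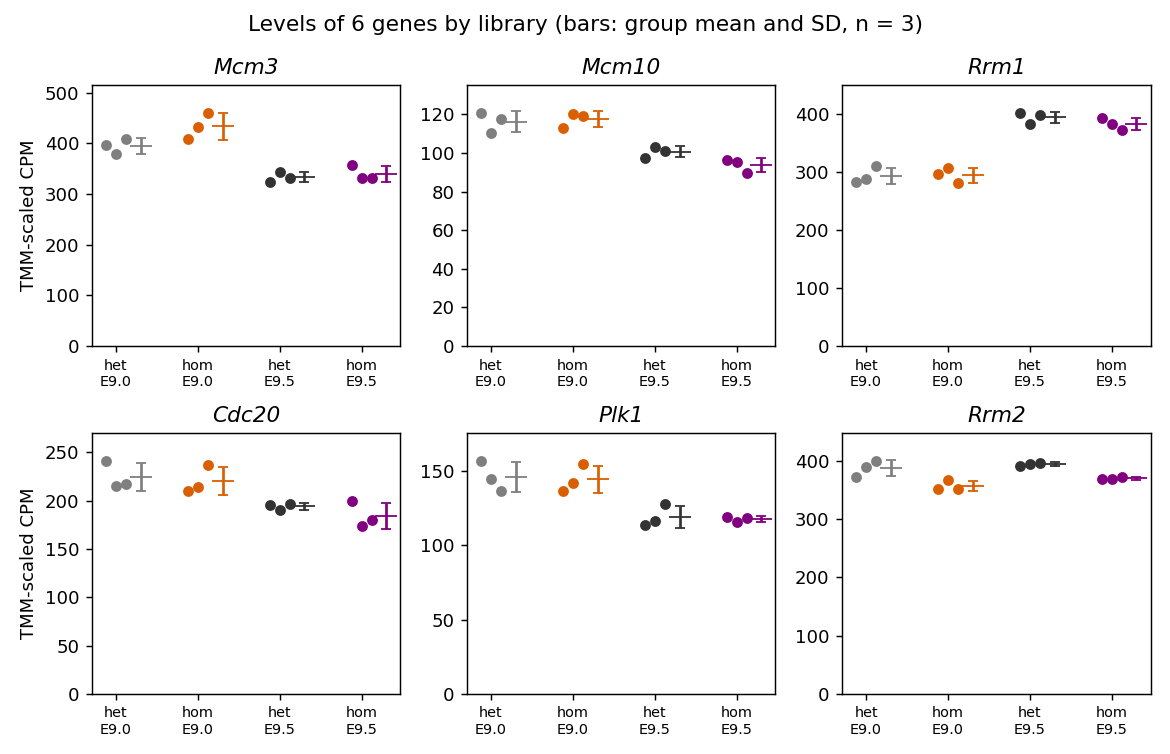
Points are the TMM-scaled CPM of each library for 6 members and bars are group means with SD (n = 3), with het for heterozygous and hom for homozygous. Mcm3, Mcm10, Cdc20 and Plk1 are lower and Rrm1 is higher at E9.5 in both genotypes, and Rrm2 is lower in the homozygous libraries at each stage.

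Markers of neurons, primitive erythroid cells and heart muscle had stage medians above the change of any member. All 8 markers of neurons that have left the cycle rose in heterozygous and 7 of 8 in homozygous embryos, with medians of 1.53 and 1.61. Their summed level was 76.2 to 79.8 CPM in heterozygous and 73.6 to 75.4 CPM in homozygous E9.0 libraries, and 183 to 216 and 146 to 160.3 CPM at E9.5. All 6 erythroid markers and all 4 heart muscle markers rose in both genotypes, with summed levels of 535 to 1169 and 42.4 to 212 CPM at E9.0 and of 2783 to 5189 and 1202 to 1983 CPM at E9.5. A heart muscle gene was at 0 in a library, and no other marker was. Markers of neural progenitors, which cycle, summed to 637 to 697 CPM at E9.0 and 648 to 805 CPM at E9.5. Of these 6 markers 2 rose and 1 fell with stage in heterozygous embryos, and 1 rose and 1 fell in homozygous ones. Of 5 endothelial markers 2 fell with stage in heterozygous and 2 rose in homozygous embryos. Of 5 facial mesenchyme markers 2 rose in heterozygous and 1 fell in homozygous embryos. Of 5 migrating crest markers 3 fell with stage in each genotype, with medians of −0.89 and −0.44. With genotype at E9.5, 4 of 5 migrating crest and 3 of 5 facial mesenchyme markers fell in homozygous libraries. There 4 of 5 endothelial markers rose, and the medians were −1.14, −0.63 and 0.64 in this order. At E9.0, 1 migrating crest marker fell and no facial mesenchyme or endothelial marker was called. The 8 markers of neurons that have left the cycle had genotype medians of −0.35 at E9.0, where 0 fell, and −0.33 at E9.5, where 1 fell. Of 4 cranial ganglion markers 1 rose and 1 fell at E9.5. The part of these cells in the members' changes was not tested.

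Other genes of the same pathways were compared between the genotypes in the same way. Of 48 further replication genes and 48 further mitotic genes, all tested, 0 passed at E9.0 and 0 at E9.5 (edgeR). Unadjusted p-values under 0.05 were held by 8 and 5 of them at E9.0 and by 4 and 4 at E9.5, against 13.3% and 13.4% of all genes. Their medians were −0.058 and −0.047 at E9.0 and −0.079 and −0.030 at E9.5. Averaged over stages, 3 of 48 replication genes and 2 of 48 mitotic genes fell, against 1.14% of all genes called lower. Of these 3, Prim1 was chosen after its value was seen, so that count is partly set by the choice and is no test against that share. Cdc25b, a phosphatase that activates Cdk1, was at 40.9, 42.1 and 42.8 CPM in heterozygous and 37.6, 30.4 and 35.4 CPM in homozygous E9.0 libraries, and 47.0, 59.1 and 55.6 CPM and 44.2, 40.4 and 46.0 CPM in those of E9.5. That average was −0.30 ± 0.064 (edgeR adjusted p 0.0175), called in 11 of 12 fits that left out a library. The averages of Kif15, a spindle kinesin, Tk1, the thymidine kinase, and Pole, the catalytic subunit of a leading-strand polymerase, were −0.22 ± 0.049, −0.18 ± 0.044 and −0.25 ± 0.063 (edgeR adjusted p 0.025, 0.0366 and 0.0425). Prim1, a subunit of primase that was chosen after its value was seen, had −0.18 ± 0.048 (edgeR adjusted p 0.049). These 4 were called in 6, 3, 2 and 2 of 12 such fits, with edgeR adjusted p up to 0.0673, 0.0917, 0.114 and 0.122. Their averages ranged over −0.25 to −0.17, −0.20 to −0.15, −0.32 to −0.21 and −0.21 to −0.15 in those fits. Under 14 other alternatives Cdc25b and Kif15 were called in 12 each, Tk1 in 10, Pole in 6 and Prim1 in 5, with edgeR, DESeq2 or limma adjusted p up to 0.416, 0.706, 0.762, 0.587 and 0.778. Among 28 regulators of G1, of which 26 were tested, 1 passed at each stage, Cdkn1a. It was at 2.35, 2.84 and 3.57 CPM in heterozygous and 18.8, 12.9 and 30.9 CPM in homozygous E9.0 libraries, and 5.33, 6.16 and 6.00 CPM and 13.2, 12.1 and 12.4 CPM in those of E9.5. Every homozygous library was above every heterozygous one, and Cdkn1a rose by 2.80 ± 0.29 at E9.0 and 1.11 ± 0.24 at E9.5 (edgeR adjusted p 3.71e-04 and 0.04). The E9.5 call was kept in 0 of 6 fits without a library (edgeR adjusted p up to 0.133) and the E9.0 call in 6 of 6. The E9.5 rise itself stayed at 1.05 to 1.15 in those fits, and that of E9.0 at 2.39 to 3.06. The rise of this inhibitor stood beside members whose intervals all lay within 1.5-fold in the same libraries with TMM scaling. With stage, 4 further replication genes rose and 8 fell in heterozygous and 2 and 11 in homozygous embryos, and 7 and 4, and 9 and 8, of the further mitotic genes, while 12 of 26 G1 regulators rose and 5 fell in each genotype. Among all genes, as given above, 19.2% rose and 16% fell in heterozygous and 19.6% and 15.8% in homozygous embryos.

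The counting of some members is uncertain. In GENCODE M21, exons of Ccna2, Ccne2, Cdc20, Cdc45, Gins2, Kif20a, Mcm7 and Plk1 overlap those of a gene on the opposite strand, from 53 bases in Cdc20 (Elovl1) to 2758 bases in Gins2 (Gse1). Whether strand was used in counting is not given in the sources used here, so reads in these stretches could belong to either gene. Pcna, Tyms, Ccnb1 and Ccnb2 have pseudogenes in that annotation. Of these Tyms-ps was in the count table, with at most 8 counts in a library.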

How the data were processed

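RNA was sequenced in 12 libraries of 4 groups. The authors deposited 1 table of raw counts per gene symbol, not normalized. Per the submitters' processing notes the tools were cutadapt, STAR, featureCounts and MultiQC and the genome build was mm10, and tool versions, gene annotation and strandedness are not given in the sources used here. All 12 columns matched samples by their labels. The main test was that of edgeR 4.0.16 under R 4.3.3 (filterByExpr, which left out 9611 symbols, TMM factors, and a robust quasi-likelihood fit with a mean per group over all 12 libraries, two-sided). DESeq2 1.42.0 and limma 3.58.1 (voom) were alternatives, and mgcv 1.9.3 fitted the GC and length correction. SE is the log2 fold change over the square root of its F statistic, and 95% intervals use the t distribution with the fit's degrees of freedom. CPM use TMM-scaled totals. Single genes were also compared by an exact permutation test. The method was tested on simulated data. Transcript lengths come from GENCODE M21 and promoters from RefSeq (GRCm38.p6). Members, lists, tests and naming rules (members past the threshold, or among the 3 largest differences or 2 smallest p of a set in a genotype comparison, and listed genes past it) were chosen with earlier results of these data known. Libraries of a pair never differed by less than sampling noise. Precision is limited by 3 libraries per group.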

Additional observations from a re-analysis of the deposited data

How the results depend on the processing

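Genotype counts of 0 members called at E9.0, at E9.5 and in their difference held in every alternative run, and so did the downward medians at E9.5. For the average over stages the exceptions were S phase counts of 1 with DESeq2, 2 with the GC content and length correction and 1 with that correction and a replicate block. Calls over all genes in the average are not given for those fits, so these counts are not read as a result about the set. Total counts only, which shift all genes (0.190 at E9.0, 0.377 and 0.184 with stage in heterozygous and homozygous embryos), moved the S phase and mitotic medians to 0.16 and 0.13 at E9.0, 0.055 and 0.041 in the average, −0.24 and −0.20 in the interaction, 0.29 and 0.30 with stage in heterozygous and 0.047 and 0.15 in homozygous embryos, where 1 and 1 members were called. All 28 heterozygous stage values below 0 turned positive, and 10 homozygous values lay below 0, against 29 with TMM. Of the turned values, those past the threshold with either scaling were, in heterozygous embryos, 0.21 (Mcm2), 0.13 (Mcm3), 0.20 (Mcm4), 0.18 (Mcm6), 0.18 (Mcm7), 0.17 (Mcm10), 0.22 (Cdc6), 0.37 (Cdc45), 0.22 (Cdk1), 0.17 (Cdc20), 0.091 (Plk1), 0.37 (Aurka), 0.34 (Aurkb), 0.21 (Bub1b) and 0.20 (Kif20a), and in homozygous embryos 0.0011 (Bub1b) and 0.022 (Birc5). Total counts without the ribosomal row, chosen after the data were seen, gave heterozygous stage calls of 2 and 2 with medians of 0.0025 and 0.028 (0.105 over all genes), and homozygous medians of −0.054 and 0.051. The GC and length correction called more, 17 and 11 members in heterozygous (medians −0.23 and −0.17) and 16 and 10 in homozygous embryos (−0.23 and −0.17), with 35 of 38 heterozygous values below 0 (63.3% of all genes) and 30 below the median of all genes. The turned values among them that passed were those of Pcna (−0.14) and Rrm2 (−0.12). With it the median of all genes moved to −0.11 and −0.097. Without a low-count filter the heterozygous stage calls were 3 and 2 and the homozygous mitotic calls 3, and at an adjusted p under 0.01 they were 3, 1 and 2. A stricter threshold also calls fewer of all genes, so the latter counts are not read as a result about the members. The causes of these shifts were not tested. Replicate numbers do not pair the libraries: same-numbered libraries of different groups had correlations of −0.17 to 0.11, over 0.1 in 1 of 18 pairs. With the replicate number as a block the heterozygous stage calls were 5 and 3, and with block and GC correction 15 and 12 (medians −0.23 and −0.17), 16 and 11 in homozygous embryos (−0.23 and −0.17), and −0.14 for Pcna. With block and GC correction 63.4% of all genes were lower at E9.5 in heterozygous and 61.6% in homozygous embryos. Calls over all genes are not given for that fit, so its counts are not read as a result about the members. Leaving out 1 library each, stage calls ranged over 3 to 9 and 1 to 3 in heterozygous and 6 to 9 and 2 to 5 in homozygous embryos. Those fits are smaller and calls over all genes are not given for them, so the ranges are not read as a result about the members. The homozygous mitotic median ranged over −0.078 to −0.00080, and the mitotic interaction median over −0.0056 to 0.055. In the nearest 150 bases the S phase share with E2F letters was 18.8%, against 43.8% in 300 bases. Every member had at least 359 counts in each library and each group 3 libraries, which limits the differences that could be seen.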
